A study of Mus musculus with 4 samples.

Results

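The 10 CA3-associated genes are Nectin3, Cpne4, Cpne7, Rnf182, Bok, Coch, Iyd, Homer3, Col6a1 and Trps1, out of 25567 genes counted. They were selected on their link to CA3 pyramidal neurons and on their reads per well in the same NeuN+ nuclei, so their levels and their joint detection in those nuclei are a description and carry no test. A gene was called present in a nucleus at 10 or more reads, and nuclei with 2 or more of the 10 genes were counted in each genotype.

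CA3 pyramidal neurons are the excitatory cells of the hippocampus that receive mossy fibre input from dentate granule cells and excite one another through recurrent collaterals. Their Schaffer collaterals drive CA1 pyramidal neurons, which project on to the subiculum. Single genes rarely mark a hippocampal field alone, so fields are usually read from several genes found in the same cell.

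Nuclei were sorted from the hippocampus of 8.5-month-old mice, and each was read in its own well by Smart-seq2, which amplifies whole transcripts and adds no molecular identifiers. The 4 libraries were NeuN+ Fasn-R1812W, NeuN+ WT, EdU+ Fasn-R1812W and EdU+ WT, with 1 library in each group. Fasn-R1812W mice carry the R1812W change in Fasn, which encodes the palmitate-making enzyme fatty acid synthase, and WT mice are wild type. Neither the zygosity nor the number of animals behind a library was given in the labels. NeuN is a nuclear protein of mature neurons. EdU is a thymidine analogue taken up by dividing cells, and it was injected at 100 mg per kg over 3 days before isolation on day 4.

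Wells with at least 1000 genes and 50000 reads were kept, which left 301 NeuN+ Fasn-R1812W, 314 NeuN+ WT, 348 EdU+ Fasn-R1812W and 167 EdU+ WT nuclei. The median depth of kept nuclei was 175328 reads in NeuN+ Fasn-R1812W, 213337 in NeuN+ WT, 224967 in EdU+ Fasn-R1812W and 80771 in EdU+ WT. The EdU+ WT library stood apart with 1298 genes in the median nucleus, against 3006 to 4417 in the other 3. The 4 libraries use the same well names, so a well name does not identify a nucleus, and 1 well name was shared between the NeuN+ nuclei with 4 or more of the genes in both genotypes. With 1 library per group no test between genotypes was possible, and all intervals cover counting error only, not the spread between animals.

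Promoters are shown for 3 of the genes: Nectin3 and Bok, a pair found together more often than the product of their shares in each of 6 settings, and Col6a1, the gene with the largest log2 ratio between the NeuN+ libraries. The windows are from RefSeq on GRCm38.p6 and run from 250 bases before to 50 bases after the annotated start. Capitals mark the letters of a motif found on either strand.
Nectin3, chr16:46496918-46497217, minus strand: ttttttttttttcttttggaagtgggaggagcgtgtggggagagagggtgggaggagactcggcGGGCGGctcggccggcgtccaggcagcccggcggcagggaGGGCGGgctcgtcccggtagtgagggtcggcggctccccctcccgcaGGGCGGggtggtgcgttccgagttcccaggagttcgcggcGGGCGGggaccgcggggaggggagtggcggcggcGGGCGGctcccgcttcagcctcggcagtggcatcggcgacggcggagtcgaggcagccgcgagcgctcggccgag
Bok, chr1:93685325-93685624, plus strand: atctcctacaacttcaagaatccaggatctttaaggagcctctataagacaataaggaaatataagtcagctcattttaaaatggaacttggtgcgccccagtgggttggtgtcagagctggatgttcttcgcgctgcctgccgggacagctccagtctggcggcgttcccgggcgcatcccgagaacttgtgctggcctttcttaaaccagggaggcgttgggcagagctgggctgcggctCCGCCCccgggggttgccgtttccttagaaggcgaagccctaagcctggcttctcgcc
Col6a1, chr10:76725995-76726294, minus strand: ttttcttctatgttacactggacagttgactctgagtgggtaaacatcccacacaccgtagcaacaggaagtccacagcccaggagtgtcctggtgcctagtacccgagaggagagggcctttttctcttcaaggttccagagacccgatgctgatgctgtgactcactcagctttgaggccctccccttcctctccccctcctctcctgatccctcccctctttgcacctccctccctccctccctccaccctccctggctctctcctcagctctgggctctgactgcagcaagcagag
The motifs searched, on both strands, were the TATA box with the letters TATAAA, the GC box with GGGCGG, the CCAAT box, an E-box with CAGCTG, and the cyclic AMP response element with TGACGTCA. The GC box occurred 5 times in the Nectin3 window and 1 time in the Bok window, and 35.7% of 32851 mouse promoter windows of the same length hold it. None of the 5 motifs was found in the Col6a1 window. The E-box was held by 16.3% and the cyclic AMP response element by 1.79% of all windows, and neither was found in the 3 windows shown. The Nectin3 window had 73.7% G or C, the Bok window 56.3% and the Col6a1 window 57.3%, beside a median of 52.7% over all windows. Of the 10 genes, 8 had a window, with Cpne7 and Trps1 as the others.

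Nectin3 (ENSMUSG00000022656, chr16:46387706-46498525, minus strand, GRCm38 with GENCODE M21) encodes an adhesion molecule of the puncta adherentia at mossy fibre synapses. Its pooled level was 29.3 CPM in NeuN+ Fasn-R1812W (28.1 to 30.6, exact Poisson 95% interval) and 27.1 CPM in NeuN+ WT (25.9 to 28.4), where CPM are reads scaled to 1000000 reads of nuclear-encoded genes. It was present in 28 of 301 NeuN+ Fasn-R1812W nuclei (9.30%) and 20 of 314 NeuN+ WT nuclei (6.37%). Nectin3 was thus scarce in both NeuN+ libraries and nearly level between them. Among nuclei where it was present, which hold 10 or more reads by definition, the median was 48 reads in Fasn-R1812W and 74.5 reads in WT. Over nuclei with any read of it, the median was 12.5 reads in Fasn-R1812W and 9 reads in WT.

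Col6a1 (ENSMUSG00000001119, chr10:76708792-76726168, minus strand) encodes a chain of collagen VI, a filament-forming collagen of the extracellular matrix. It had 108 CPM in NeuN+ Fasn-R1812W and 36.8 CPM in NeuN+ WT, and was present in 31 and 19 nuclei of these libraries. The log2 ratio of Fasn-R1812W over WT, taken after adding 1 CPM, was 1.53. The nucleus with the most reads gave 13.8% of the Col6a1 reads in Fasn-R1812W and 27.6% in WT, so few nuclei set both levels. Coch (ENSMUSG00000020953, chr12:51593341-51605771, plus strand) encodes cochlin, a secreted matrix protein known from the inner ear. Coch was near the floor, with 6.21 CPM in NeuN+ Fasn-R1812W and 8.84 CPM in NeuN+ WT, and was present in 8 and 7 nuclei.

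The copines are calcium-dependent phospholipid-binding proteins. Cpne7 (ENSMUSG00000034796, chr8:123117374-123135182, plus strand) had 586 CPM (581 to 592) in NeuN+ Fasn-R1812W and 258 CPM (255 to 262) in NeuN+ WT, a log2 ratio of 1.18. It was present in 161 of 301 Fasn-R1812W nuclei (53.5%) and 104 of 314 WT nuclei (33.1%), far more nuclei than any other gene of the set. Cpne4 (ENSMUSG00000032564, chr9:104547286-105034544, plus strand) had 66.2 CPM in NeuN+ Fasn-R1812W and 83.9 CPM in NeuN+ WT. It was present in 63 nuclei (20.9%) and 72 nuclei (22.9%) of these libraries. The copines thus ran in opposite directions between genotypes, with a log2 ratio of -0.34 for Cpne4. Reads of Cpne7 cannot be told apart from those of Gm20388 and Mir7080 where these overlap it on the same strand.

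Homer3 (ENSMUSG00000003573, chr8:70282827-70294361, plus strand) encodes a postsynaptic scaffold that binds metabotropic glutamate receptors. It had 27.1 CPM in NeuN+ Fasn-R1812W and 19.8 CPM in NeuN+ WT. Ddx49 overlaps it on the opposite strand and the strand setting of the counting is not given in the sources used here, so its reads may include those of Ddx49. Rnf182 (ENSMUSG00000044164, chr13:43615710-43670945, plus strand), a RING-type ubiquitin ligase, had 62.9 CPM in NeuN+ Fasn-R1812W and 40.1 CPM in NeuN+ WT. Bok (ENSMUSG00000026278, chr1:93685660-93695764, plus strand), a BCL-2 family protein, had 16.3 CPM in NeuN+ Fasn-R1812W and 17.9 CPM in NeuN+ WT and was present in 18 and 15 nuclei.

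Trps1 (ENSMUSG00000038679, chr15:50654752-50890463, minus strand) encodes a GATA-type zinc finger repressor of transcription. It had 97.7 CPM in NeuN+ Fasn-R1812W and 71.9 CPM in NeuN+ WT, with 59 nuclei (19.6%) and 45 nuclei (14.3%) holding it. Iyd (ENSMUSG00000019762, chr10:3540240-3554877, plus strand) encodes the deiodinase that recovers iodide in the thyroid. Iyd rested on 121 reads in NeuN+ Fasn-R1812W, in 3 nuclei at 10 or more reads, and on 337 reads in NeuN+ WT, in 5 such nuclei. Its log2 ratio of -1.10 is therefore set by a handful of nuclei.

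Per kilobase of exon, which lets genes be ranked, Cpne7 led both NeuN+ libraries with 111 CPM per kb in Fasn-R1812W and 49.0 in WT. Col6a1 followed in Fasn-R1812W with 24.7 CPM per kb, against 8.39 in WT. In WT the second gene was Cpne4 with 15.3 CPM per kb, and it was below Col6a1 in Fasn-R1812W. Nectin3 was among the lowest, with 2.30 CPM per kb in Fasn-R1812W and 2.13 in WT. Because there was 1 library per group, no spread between animals can be set beside this order.

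**Figure D1:**
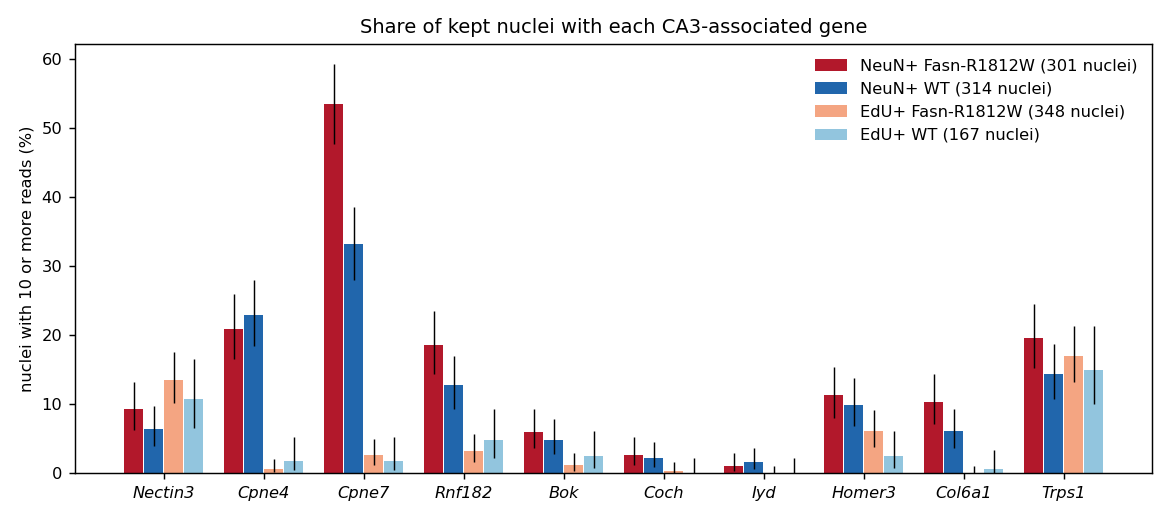
Share of kept nuclei with 10 or more reads of each CA3-associated gene in the 4 libraries. Bars are the share in percent and lines the exact Clopper-Pearson 95% interval. Cpne7 is the most widespread in the NeuN+ libraries, at 53.5% of Fasn-R1812W and 33.1% of WT nuclei, while Nectin3 and Trps1 are also found among EdU+ nuclei.

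A filter asked for 10 CPM, and for any read in 10% of nuclei, in either NeuN+ library. Of the 7 genes that passed it, Cpne7 and Col6a1 were at least 2-fold higher in Fasn-R1812W and none was at least 2-fold lower. The background was 3.17% of 10895 genes at least 2-fold higher and 3.03% at least 2-fold lower. Bok, Coch and Iyd did not pass it, and of these Iyd was more than 2-fold lower. The median log2 ratio of the 10 genes was 0.27, beside 0.02 for all genes that passed, and 6 of the 10 lay above 0. As the genes were chosen with these values known, nothing particular to the set is read from this count. In pooled reads, fewer cells of a type and less RNA per cell cannot be told apart.

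The other CA3 genes did not differ by that much. Of the 6 listed (Grik4, Npy2r, Cdh24, Elavl2, Mas1 and Spock1), 5 passed the filter, none was 2-fold apart, and their median log2 ratio was 0.07. Elavl2, a neuronal RNA-binding protein, had 131 CPM in NeuN+ Fasn-R1812W and 111 CPM in NeuN+ WT. Spock1, a proteoglycan of the testican family, had 102 CPM in Fasn-R1812W and 69.4 CPM in WT. Mas1, a receptor for angiotensin peptides, had 101 CPM in Fasn-R1812W and 107 CPM in WT.

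Counted per nucleus, the CA3-associated genes were found together more often in Fasn-R1812W. At least 2 of the 10 were present in 122 of 301 NeuN+ Fasn-R1812W nuclei (40.5%, 34.9 to 46.3) and in 96 of 314 NeuN+ WT nuclei (30.6%, 25.5 to 36.0). The difference was 9.96 percentage points (Newcombe 95% interval 2.39 to 17.4). Just inside that limit, 76 Fasn-R1812W and 70 WT nuclei held exactly 2 genes, and just outside it 109 and 122 nuclei held exactly 1. After every nucleus was thinned to 50000 reads, the shares were 23.6% in Fasn-R1812W and 18.2% in WT, and the interval of the difference held 0 (5.44 points, -0.99 to 11.8). Leaving Cpne7 out of the set gave 4.41 points (-1.88 to 10.7), while leaving out any of the other 9 genes gave 9.52 to 10.8 points. At least 2 CA1 markers were present in 55.3% of Cpne7 nuclei and 12.1% of the others in Fasn-R1812W, and in 66.3% and 14.8% in WT. For at least 2 of the other CA3 genes these shares were 31.7% and 30.7% in Fasn-R1812W, and 31.7% and 27.1% in WT. The difference of shares is therefore not read as one of CA3 nuclei.

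Of the 9.96 points, 6.45 lay in nuclei with many of the genes. At least 4 of the 10, a limit chosen after the values were seen, were present in 29 Fasn-R1812W nuclei (9.63%) and 10 WT nuclei (3.18%), with an interval of 2.61 to 10.6 points for the difference. Thinned to 50000 reads the shares were 5.65% in Fasn-R1812W and 1.27% in WT, a difference of 4.37 points (1.51 to 7.68). Without Cpne7 the difference was 5.07 points (1.84 to 8.67). The nucleus with the most of them held 8 in Fasn-R1812W and 7 in WT. Nuclei with 4 or more were deeper than those with fewer than 2, with a median of 234613 against 160658 reads in Fasn-R1812W and 225486 against 207406 reads in WT.

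**Figure D2:**
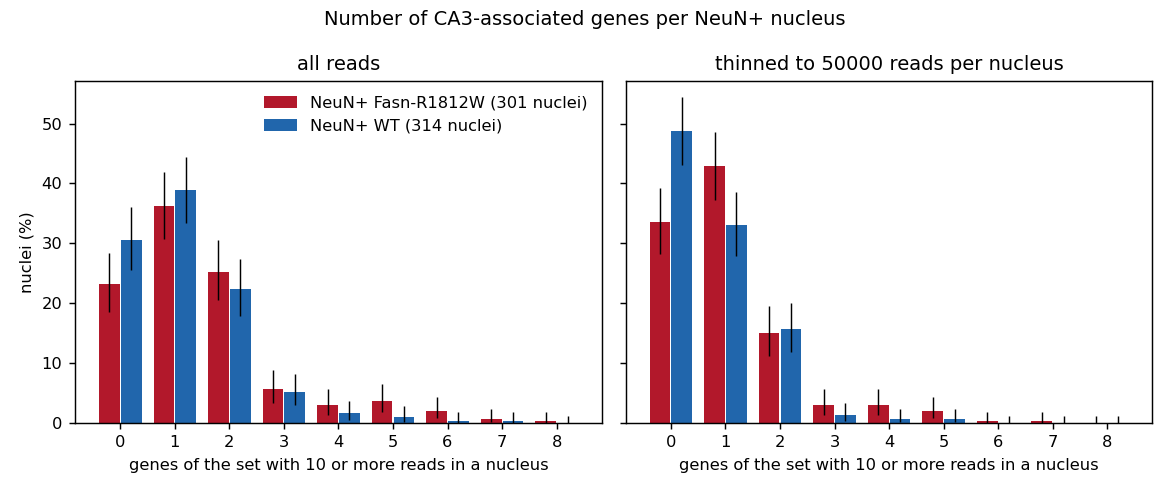
Number of CA3-associated genes with 10 or more reads in each NeuN+ nucleus, as percent of kept nuclei, from all reads (left) and after thinning each nucleus to 50000 reads (right). Lines are exact Clopper-Pearson 95% intervals. From all reads the intervals of the genotypes overlap at each exact number of genes. At exactly 4 they are 1.38 to 5.60% in Fasn-R1812W and 0.52 to 3.68% in WT. For 4 or more genes as a group, the shares from all reads are 9.63% in Fasn-R1812W and 3.18% in WT. After thinning, the intervals part at 0 genes, with 33.6% (28.2 to 39.2) in Fasn-R1812W and 48.7% (43.1 to 54.4) in WT.

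Composition of the 2 NeuN+ libraries moved with these shares. Granule-like nuclei made up 49 of 301 (16.3%) in Fasn-R1812W and 104 of 314 (33.1%) in WT. How many nuclei took the name granule-like depended on the clustering. At resolution 0.5 the granule-like cluster held 74 Fasn-R1812W and 132 WT nuclei, and with 30 components 57 and 77. In the latter a cluster led by Cxcl12 and Dsp, with 18 Fasn-R1812W and 56 WT nuclei, took no name. Its 10 leading genes held 3 of the granule cell markers, Dsp, Lct and C1ql2, so the 57 and 77 leave out nuclei with such markers. All 8 granule cell markers listed passed the filter and 3 of them, Prox1, C1ql2 and Dsp, were at least 2-fold lower in Fasn-R1812W, with a summed level of 839 CPM in Fasn-R1812W and 1405 CPM in WT. CA1-like nuclei made up 22.9% in Fasn-R1812W and 15.9% in WT. Within these classes, 26 of 69 Fasn-R1812W and 22 of 50 WT CA1-like nuclei held at least 2 of the 10 genes. The same counts were 8 of 49 and 21 of 104 for granule-like, 6 of 24 and 3 of 14 for subicular-like, and 13 of 40 and 3 of 33 for interneuron-like nuclei. In cluster 0, which took no name, they were 26 of 36 Fasn-R1812W and 8 of 13 WT nuclei, out of 122 and 96 such nuclei in all. Cluster 9, with 25 Fasn-R1812W and 28 WT nuclei, took the name choroid plexus and ependyma-like though its nuclei were sorted as NeuN+. Cluster 10, with 18 Fasn-R1812W and 40 WT nuclei, took no name. A name is thus that of the best marker list and not a proven cell type. Of the 6 mossy cell markers 3 passed the filter. Of the 6, 5 were higher in Fasn-R1812W, with a median log2 ratio of 0.84, beside 0.02 for all genes that passed. Their summed level was 275 CPM in Fasn-R1812W and 140 CPM in WT, of which Ociad2 alone gave 178 and 90.4 CPM. Of the 8 astrocyte markers 4 passed the filter. At least 2-fold lower were 6 of the 8, including Aqp4 and Gfap, which did not pass it. Of all 10895 genes that passed, 3.03% were at least 2-fold lower. The 8 summed to 590 CPM in Fasn-R1812W and 1536 CPM in WT. In WT 1 nucleus gave 32.6% of their reads among the 304 nuclei with fewer than 4 of the set. Another gave 87.3% among the other 10. What part the composition had in the difference of shares was not tested.

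By number of nuclei the most frequent pairs were with Cpne7, led by Cpne7 and Trps1 in 40 Fasn-R1812W and 26 WT nuclei. Relative to the product of their shares, pairs with Nectin3 led. Of 45 pairs, 30 occurred together in more nuclei than the product of their shares in both libraries, and 6 did so at least 2 times over. Nectin3 was in 4 of these 6, with Trps1, Bok, Iyd and Col6a1, and the remaining pairs were Coch with Col6a1 and Iyd with Homer3. Nectin3 and Trps1 were found together in 14 Fasn-R1812W nuclei, where the product of shares gives 5.49, and in 12 WT nuclei, where it gives 2.87. Trps1 was thus present in 14 of 28 Nectin3 nuclei and 19.6% of all nuclei in Fasn-R1812W, and in 12 of 20 and 14.3% in WT. Nectin3 and Bok shared 7 Fasn-R1812W and 5 WT nuclei, against products of 1.67 and 0.955. Pairs with Iyd or Coch rested on few nuclei. Over 6 settings only Nectin3 with Bok, Iyd and Trps1 stayed at 2 times the product or more in each, whereas Nectin3 with Col6a1 did so in 1 and Iyd with Homer3 in 2. Thinned, 21 pairs in place of 30 lay above the product in both libraries, and the median ratio of the 45 pairs was 2.08 in Fasn-R1812W and 0.95 in WT. No such count was made for pairs of other genes with like detection. As nuclei also differed in depth, the counts of pairs are not read as particular to the set.

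The copines differed in the classes of nuclei that held them. Cpne4 and Cpne7 were both present in 30 Fasn-R1812W nuclei and 16 WT nuclei, which was 0.89 and 0.67 times the product of their shares. In Fasn-R1812W Cpne7 was in 47.6% of Cpne4 nuclei (34.9 to 60.6) and 53.5% of all nuclei, so no shortfall was resolved there. Thinned to 50000 reads the ratios were 0.95 in Fasn-R1812W and 0.33 in WT. In CA1-like nuclei Cpne7 had 832 CPM in Fasn-R1812W and 789 CPM in WT, whereas Cpne4 had 0.998 and 3.95 CPM. In granule-like nuclei the order was turned round, with 122 CPM in Fasn-R1812W and 123 CPM in WT for Cpne4, and 17.1 and 3.50 CPM for Cpne7. Of the nuclei with both copines, 13 of 30 in Fasn-R1812W and 3 of 16 in WT lay in the CA3-like cluster, which held 14 and 4 nuclei in all. These classes came from clustering that left the 10 genes out.

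**Figure D3:**
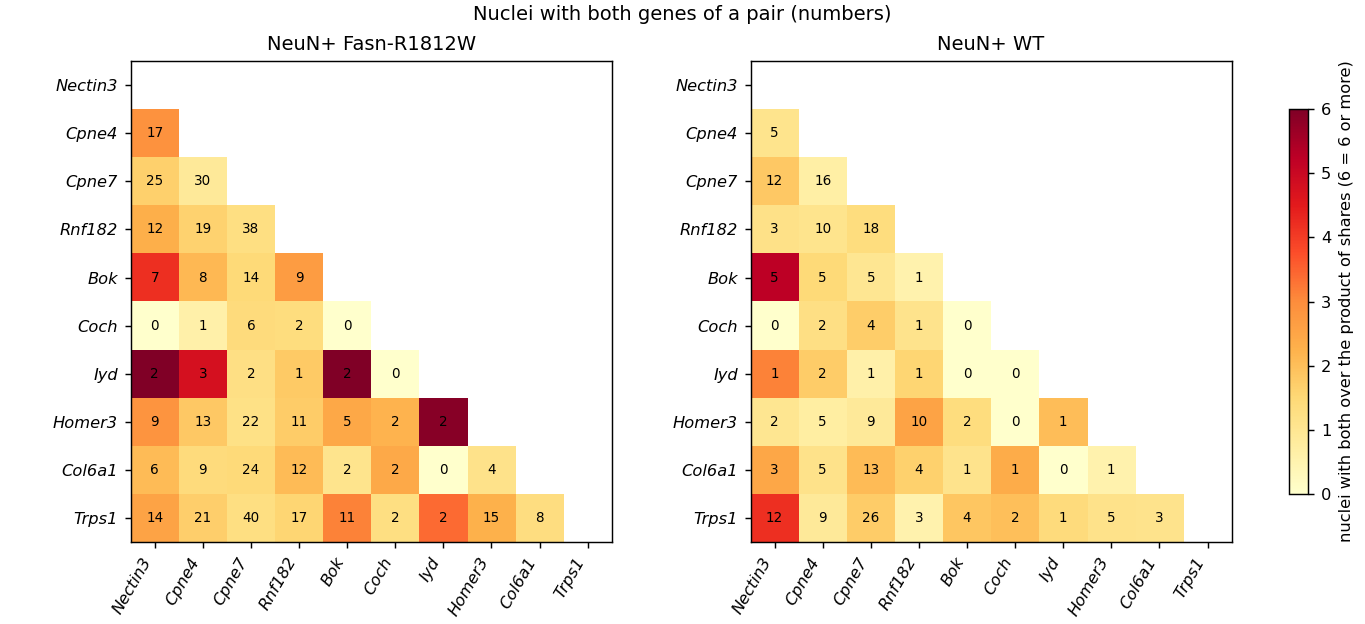
Co-detection of the CA3-associated genes in NeuN+ Fasn-R1812W (left) and NeuN+ WT (right) nuclei at 10 or more reads. Numbers are nuclei with both genes, and color is that number over the product of the 2 shares. Nectin3 with Bok and Nectin3 with Trps1 stand above the product in both libraries, while Cpne4 with Cpne7 lies under it.

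When NeuN+ nuclei were clustered without the 10 genes, a cluster of 18 nuclei took the name CA3-like from the 6 other CA3 genes, 5 of which were at least 2-fold higher in it than in other nuclei. It held 14 Fasn-R1812W nuclei (4.65% of 301) and 4 WT nuclei (1.27% of 314), and all 18 held at least 4 of the CA3-associated genes. No CA3 gene was among its 10 leading genes, which were Ifi203, Mndal, Cd109, Cldn22, Olfr556, Thg1l, Pnpla7, Loxl1, Cpne9 and Ttyh2. The name depends on the clustering. At resolution 0.5 its 18 nuclei fell together in a cluster of 88 nuclei that took the name subicular-like. With 30 components they fell in an unnamed cluster of 62, whose best list was that of mossy cells (mean log2 fold 1.35). In the CA3-like cluster 4 of 14 Fasn-R1812W and 2 of 4 WT nuclei held at least 2 mossy cell markers. Outside it and clusters 0 and 6 the shares were 16.5% and 5.90%. At least 2 of the other CA3 genes, which gave the name, were in 11 of 14 and 4 of 4, against 26.7% and 26.4%. With 14 and 4 nuclei, levels in the CA3-like cluster are those of few cells.

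In the CA3-like cluster Nectin3 had 496 CPM in Fasn-R1812W and 599 CPM in WT, against 0.883 and 5.82 CPM in granule-like nuclei. It was present in 12 of 14 and 4 of 4 CA3-like nuclei and in 0 of 49 and 2 of 104 granule-like nuclei, where the 0 of 49 allows up to 7.25% of nuclei (exact 95% upper bound). The median depth was 185420 reads in Fasn-R1812W and 178432 in WT for CA3-like, and 186262 and 256008 for granule-like nuclei. Trps1 had 697 CPM in Fasn-R1812W and 1609 CPM in WT, and was present in all 18 nuclei. Bok had 138 CPM in Fasn-R1812W and 162 CPM in WT, in 8 of 14 and 2 of 4 nuclei. All 7 Fasn-R1812W nuclei with both Nectin3 and Bok, and 2 of the 5 in WT, lay in this cluster. In WT Bok was higher still in cluster 13, named oligodendrocyte-like, with 362 CPM there and 0 reads in the Fasn-R1812W nuclei of that cluster, each from 6 nuclei. These 6 WT nuclei also had 279 CPM of Nectin3, 356 CPM of Cpne4 and 174 CPM of Trps1. In each library 1 nucleus of cluster 13 held 4 or more of the genes. Doublets were not called, so the Bok level there is not assigned to a cell type.

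The other genes of the set split there. Cpne7 had 1380 CPM in Fasn-R1812W and 797 CPM in WT, and Cpne4 had 228 and 111 CPM. Rnf182 had 177 CPM in Fasn-R1812W and 150 CPM in WT, and Homer3 had 93.9 and 40.5 CPM. Col6a1 was present in 3 of 14 Fasn-R1812W nuclei and 1 of 4 WT nuclei, with 60.8% of its Fasn-R1812W reads in 1 nucleus. Coch was present in 1 of 14 and 0 of 4 and Iyd in 2 of 14 and 0 of 4 nuclei, so these were not seen in most CA3-like nuclei at this depth.

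Clusters 0 and 6, which took no cell type name and were singled out after their values were seen, held much of the other signal. Cluster 0, led by Dcn, Col6a2, Vegfd, Plagl1 and Prss23, held 36 of 301 Fasn-R1812W nuclei and 13 of 314 WT nuclei. Cpne7 had 2414 CPM there in Fasn-R1812W and 1931 CPM in WT, and Col6a1 had 600.3 and 457 CPM. Cluster 0 carried 4063 of the 7601 Col6a1 reads of the Fasn-R1812W library and 1261 of the 2554 of the WT library. Nectin3 had 36.8 CPM in Fasn-R1812W and 42.1 CPM in WT in this cluster. Collagen VI filaments also hold a Col6a2 chain, which was among the leading genes.

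Cluster 6, led by Cd44, Gpr6, Sec14l3, Fermt1 and Cfap52, held 8 Fasn-R1812W and 9 WT nuclei. Cpne7 and Trps1 were present in every nucleus of it. Trps1 had 989 CPM in Fasn-R1812W and 773 CPM in WT, and Cpne7 had 596 and 441 CPM. Rnf182, Bok and Col6a1 were present in none of its 17 nuclei, which allows a share of up to 36.9% of the Fasn-R1812W and 33.6% of the WT nuclei (exact 95% upper bound). High Trps1 was thus also found outside the CA3-like nuclei.

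Within classes of nuclei the Cpne7 ratio ran both under and over that of the pooled libraries. The log2 ratio of Fasn-R1812W over WT for Cpne7 was 0.08 in CA1-like, 0.21 in subicular-like, 0.32 in cluster 0 and 0.79 in CA3-like nuclei, beside 1.18 in the pooled libraries. It was 1.84 in interneuron-like and 2.01 in granule-like nuclei, where the nucleus with the most reads gave 41.4% and 46.4% of the Fasn-R1812W reads. For Col6a1 the ratio was 0.39 in cluster 0, beside 1.53 pooled. In cluster 10, which took no name, it was 2.26, with 328 CPM in Fasn-R1812W and 67.5 CPM in WT. In CA1-like nuclei Col6a1 had 2 reads in Fasn-R1812W and 429 reads in WT, where 3 WT nuclei held 10 or more. With 1 library per genotype, a change within cells and a change in the number of cells of each class cannot be told apart.

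**Figure D4:**
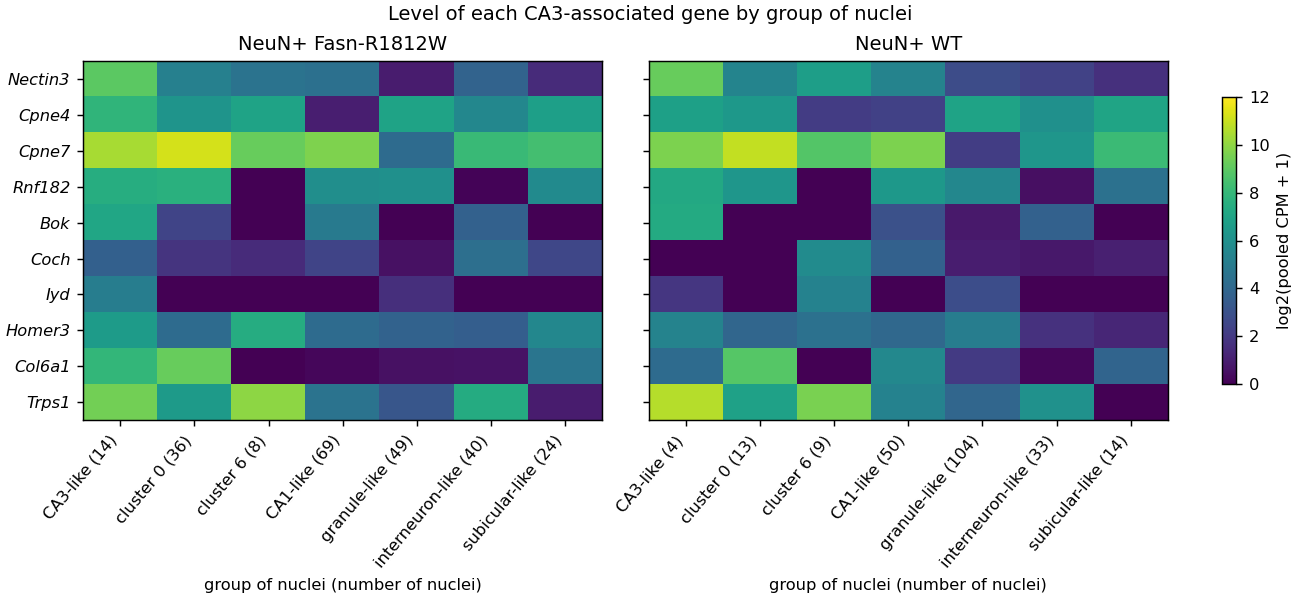
Pooled level of each CA3-associated gene, as log2(CPM + 1), in groups of NeuN+ nuclei of Fasn-R1812W (left) and WT (right) mice, from clustering without these genes. The number of nuclei stands after each group name. Among the groups shown, Nectin3 and Bok are highest in the CA3-like nuclei, Cpne7 and Col6a1 in cluster 0, and Cpne4 is low in CA1-like nuclei, at 0.998 CPM in Fasn-R1812W and 3.95 CPM in WT.

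The rule of 2 or more genes also took in CA1 nuclei. At least 2 CA1 markers were present in 50 of 122 such Fasn-R1812W nuclei (41.0%) and in 56 of 179 nuclei with fewer (31.3%). In WT these were 43 of 96 (44.8%) and 57 of 218 (26.1%). Granule cell markers ran the other way, at 20.5% against 44.1% in Fasn-R1812W and 37.5% against 53.7% in WT. Subicular markers were found in 14.8% against 14.0% in Fasn-R1812W and in 18.8% against 10.1% in WT. Thinned to 50000 reads, the subicular difference in Fasn-R1812W was -12.5 points, so its direction depends on depth.

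Nuclei with 4 or more of the genes seldom held CA1 or granule cell markers. At least 2 of the other CA3 genes were present in 22 of 29 such Fasn-R1812W nuclei (75.9%, 56.5 to 89.7) and 72 of 272 others (26.5%, 21.3 to 32.1). In WT these were 6 of 10 (26.2 to 87.8%) and 84 of 304 (27.6%, 22.7 to 33.0). CA1 markers were found in 5 of 29 Fasn-R1812W and 1 of 10 WT nuclei with 4 or more, granule cell markers in 4 and 2, subicular markers in 1 and 1, and interneuron markers in 1 and 0. Markers of mossy cells, the glutamatergic neurons of the dentate hilus, were present in 11 of 29 (37.9%) against 43 of 272 (15.8%) in Fasn-R1812W, and in 2 of 10 against 21 of 304 in WT.

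Astrocyte markers moved with the set as well. At least 2 of 8 were present in 19 of 29 Fasn-R1812W nuclei with 4 or more genes (65.5%) and 90 of 272 others (33.1%), and in 5 of 10 and 109 of 304 (35.9%) in WT. This panel includes Slc1a2, a glutamate transporter that rodent CA3 neurons are also known to transcribe. Without Slc1a2 the counts were 6 of 29 and 34 of 272 in Fasn-R1812W, and 2 of 10 and 37 of 304 in WT. No astrocyte marker was at 0 in these sets, the summed level of the 7 was 471 CPM in the 29 Fasn-R1812W nuclei and 3541 CPM in the 10 WT nuclei, against 295 and 644 CPM in the other nuclei, and 97.8% of the WT reads came from 1 nucleus. At least 2 of 6 microglia markers were present in 3 of 29 Fasn-R1812W nuclei with 4 or more genes and 8 of 272 others, and in 2 of 10 and 8 of 304 in WT. Their summed level was 111 CPM in the 29 nuclei and 117 CPM in the others in Fasn-R1812W, and 159 and 76.3 CPM in WT. The part of either cell type in the result was not tested. In the CA3-like cluster 0 of 14 Fasn-R1812W and 0 of 4 WT nuclei held 2 of these 7 markers, which allows up to 23.2% and 60.2% of nuclei, and 1 and 5 of the 7 markers were at 0 reads there. Microglia markers were found in 3 of these 14 and 1 of these 4 nuclei, with 1 and 4 of the 6 at 0 reads.

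**Figure D5:**
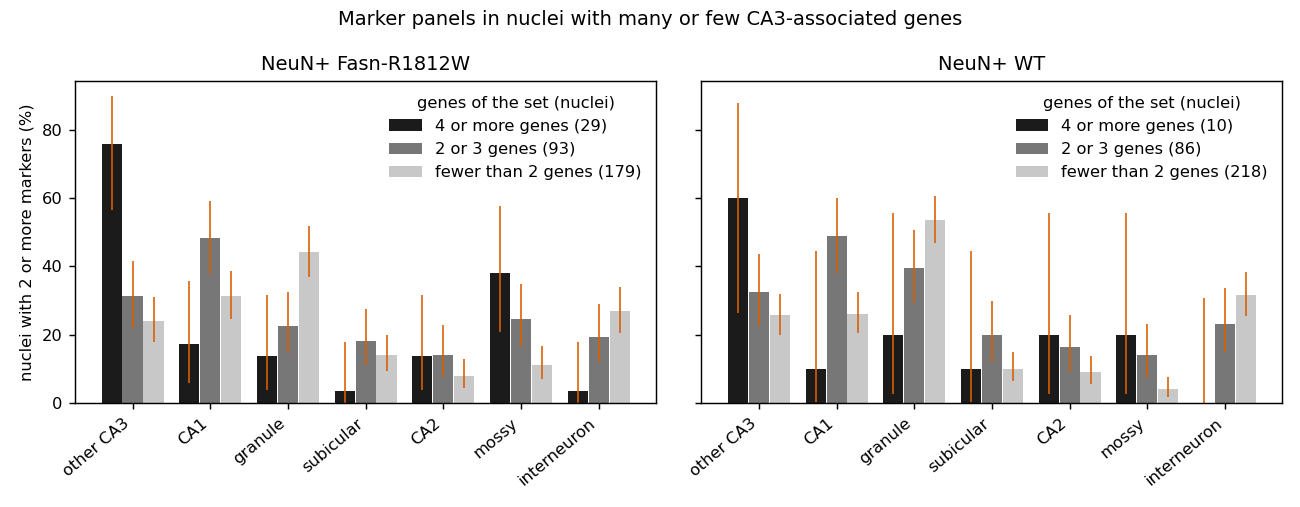
Share of NeuN+ nuclei with 2 or more markers of each panel at 10 or more reads, for nuclei with 4 or more, 2 or 3, and fewer than 2 CA3-associated genes, in Fasn-R1812W (left) and WT (right). Lines are exact Clopper-Pearson 95% intervals and the number of nuclei is in the legend. The other CA3 genes reach 75.9% of nuclei with 4 or more genes in Fasn-R1812W and 6 of the 10 in WT, while CA1 markers are highest in nuclei with 2 or 3.

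Genes with the pattern most like that of the set were sought among 10169 genes, by the smaller of the differences in the share of thinned nuclei with 5 or more reads. For nuclei with 2 or more of the CA3-associated genes, the first was Sv2b, a synaptic vesicle glycoprotein, at 63.9% against 39.1% of nuclei in Fasn-R1812W and 53.1% against 25.7% in WT. Next was Tenm4, a teneurin adhesion protein, at 68.9% against 46.9% in Fasn-R1812W and 55.2% against 31.7% in WT. Dock9, Psd3, Brinp2, St8sia3, Scd2, Ociad2 and Nlgn1 were also among the first 10, with smaller differences of 14.9 to 18.0 points.

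For nuclei with 4 or more the differences were wider. Slit2, a secreted axon guidance ligand, was found in 69.0% against 19.5% in Fasn-R1812W and 70.0% against 16.8% in WT. Efr3b, which anchors a phosphatidylinositol kinase at the plasma membrane, was found in 72.4% against 22.1% in Fasn-R1812W, with a difference of 45 points in WT. Spock1 and Elavl2, both from the list of other CA3 genes, were also among the first 10, and Slc1a2, Prkca, Zfyve27, Srgap2, Dgkb and Syngr1 filled the other places. This second list was made after the values were seen.

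Set against EdU+ nuclei, which the choice of genes did not use, the set divided. Cpne4, Cpne7, Coch, Iyd and Col6a1 were at least 2-fold higher in NeuN+ than in EdU+ nuclei of both genotypes, and Nectin3 was at least 2-fold lower. The background was 22.1% of 11689 genes higher and 20.5% lower in Fasn-R1812W, and 24.2% of 10744 higher and 14.9% lower in WT, so a change of that size between the gates was common. Of these genes Coch and Iyd did not pass the filter. Rnf182 had a log2 ratio of 1.19 in Fasn-R1812W and -0.60 in WT, and Bok, Homer3 and Trps1 lay between -0.48 and -0.04. Several of the WT ratios depend on which nuclei are kept. With wells of at least 300 genes and 20000 reads, Coch in WT turned to -1.22, Rnf182 to 0.07 and Homer3 to 0.17, and Bok came to -1.62; as the mean CPM per nucleus Bok in WT was 0.28. The NeuN+ values had a part in the choice of the genes, so these ratios too are a description.

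Cpne7 had 586 CPM in NeuN+ and 17.7 CPM in EdU+ Fasn-R1812W nuclei, and 258 CPM in NeuN+ and 17.4 CPM in EdU+ WT nuclei. Its log2 ratio of NeuN+ over EdU+ was 4.98 in Fasn-R1812W and 3.81 in WT. Col6a1 had 108 CPM in NeuN+ and 0 reads in EdU+ Fasn-R1812W nuclei. With the 0 set at a limit of 3 reads in the library, the ratio was 3423-fold. In WT Col6a1 had 36.8 CPM in NeuN+ and 17.3 CPM in EdU+ nuclei, and all 260 of the EdU+ reads came from 1 nucleus. As 1 nucleus can give that many reads, 3423-fold is not a lower bound. The 0 of 348 EdU+ Fasn-R1812W nuclei allows up to 1.05% of nuclei with Col6a1 (exact Clopper-Pearson upper bound).

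Nectin3 ran the other way. It had 29.3 CPM in NeuN+ and 129 CPM in EdU+ Fasn-R1812W nuclei, and 27.1 CPM in NeuN+ and 117 CPM in EdU+ WT nuclei. At 10 or more reads it was present in 47 of 348 EdU+ Fasn-R1812W and 18 of 167 EdU+ WT nuclei. Of these, 45 of 47 and 15 of 18 also held at least 2 markers of oligodendrocyte precursors, against 64.5% and 81.9% of the other EdU+ nuclei. Trps1 had 97.7 CPM in NeuN+ and 129 CPM in EdU+ Fasn-R1812W nuclei, and 71.9 CPM in NeuN+ and 100.4 CPM in EdU+ WT nuclei. Neither gene was limited to NeuN+ nuclei.

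Joint detection was rarer in EdU+ than in NeuN+ nuclei. As the genes were chosen on their reads in NeuN+ nuclei, this gap is a description and carries no test. Reads were not thinned here. Median depth in EdU+ against NeuN+ nuclei was 80771 against 213337 reads in WT, and 224967 against 175328 reads in Fasn-R1812W. At least 2 of the genes were present in 40.5% of NeuN+ and 6.61% of EdU+ Fasn-R1812W nuclei, and in 30.6% of NeuN+ and 5.99% of EdU+ WT nuclei. At least 4 were present in 1 nucleus of each EdU+ library, 0.287% of Fasn-R1812W and 0.599% of WT nuclei. Between the EdU+ genotypes, Nectin3, Homer3 and Trps1 passed the filter and none of them was 2-fold apart, while Cpne4, Rnf182 and Col6a1 were at least 2-fold lower without passing it, beside 17.3% of 9193 genes at least 2-fold higher and 8.05% at least 2-fold lower in Fasn-R1812W.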

How the data were processed

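The authors deposited whole-number read counts for each gene and well, not normalized. Per the submitters' processing notes, Trimmomatic 0.36, STAR 2.5.3a and build GRCm38.p5 were used; neither the counting program nor its annotation or strand setting is stated in the labels. Gene symbols were matched for 25395 of 25567 identifiers. Kept nuclei were pooled per library, scaled to CPM over nuclear-encoded genes and compared as log2 ratios after adding 1 CPM; without replicate libraries no p-value was computed. Total depth was 36368990 to 96597804 reads a library. Shares have exact Clopper-Pearson intervals, counts exact Poisson intervals and differences Newcombe intervals, all at 95%; these and the limit of 3 reads for a count of 0 cover counting error only, since PCR copies are not independent molecules.

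NeuN+ nuclei were clustered with scanpy 1.11.5 (2000 variable genes, 20 components, 15 neighbours, Leiden resolution 1), leaving out the 10 genes, sex-linked and mitochondrially encoded genes. A cluster was named if 3 markers of its best list were at least 2-fold higher in it, unless other lists had more markers than that list among its 10 leading genes. Doublets were not called, and an alternative dropped the 5% of nuclei richest in genes. The ratio and pattern steps were tested on simulated data. Python 3.11.15 and, for TMM scaling, edgeR 4.0.16 were used. All 10 genes are named, with up to 4 genes of other lists and the 10 genes most alike by a fixed rule, of which 1 is not reported here. The genes and lists were chosen with earlier results of these data known; the limit of 4 genes, the sets of clusters 0, 6 and 12, the panel without Slc1a2 and co-detection at 5 reads were added after seeing the data. Embryonic nuclei were not analysed here.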

Additional observations from a re-analysis of the deposited data

Results flagged for a closer look

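Col6a1 went opposite ways in the gates. Its log2 ratio of Fasn-R1812W over WT was 1.53 among NeuN+ nuclei, with 108 CPM in Fasn-R1812W and 36.8 CPM in WT, and -4.19 among EdU+ nuclei, with 0 reads in Fasn-R1812W and 17.3 CPM in WT. The EdU+ WT reads all came from 1 nucleus. The difference between the gates was not tested, as there was 1 library per group.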

How the results depend on the processing

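Of 96 alternative values of the results that answer a comparison, 91 stayed within the limits set for them and 5 moved. A value that did not move need not keep the reading of the main result. The difference in nuclei with 2 or more genes, 9.96 points, was 5.44 points when thinned to 50000 reads and 4.41 points without Cpne7. Both intervals held 0 (-0.99 to 11.8 and -1.88 to 10.7), yet neither value is among the 5 that moved. Under thinning to 50000 reads and under the mean CPM per nucleus, the number of CA3-associated genes at least 2-fold lower in NeuN+ Fasn-R1812W was 0 in place of 1, as the Iyd ratio came to -0.82 and -0.75. Thinning also gave -12.5 points for the subicular overlap in Fasn-R1812W, in place of 0.79. The cluster with most of the nuclei holding 4 or more genes held 30 of 39 at resolution 0.5 and 29 of 39 with 30 components, in place of 18, and neither of these clusters took the name CA3-like. The causes were not tested. The log2 ratio of Cpne7 ranged from 1.16 to 1.22 and that of Col6a1 from 1.48 to 1.78 over 9 settings. The interval of the difference in nuclei with 2 or more genes also held 0 when 20 reads were asked for (6.98 points, -0.0099 to 13.9). In nuclei with 4 or more genes the interval lay above 0 in each setting run, with differences of 4.37 to 8.32 points. The share of all genes at least 2-fold higher in Fasn-R1812W was 1.93% thinned and 5.08% without the filter on low genes. No paired analysis was possible because each group had 1 library. With few nuclei per cluster and no replicate libraries, these data limit the rarer genes, Coch and Iyd, most.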
